A study of Mus musculus with 6 samples.

Results

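Axon guidance ligands and receptors were examined in the hippocampus of PTCHD1 mutant and wild-type mice. They were taken from the deposited expression table by gene symbol, as the semaphorins, plexins, neuropilins, ephrins, Eph receptors, Slits, Robos, netrins, netrin-G proteins, Unc5 receptors and Dcc. The rule matched 72 of the 25785 gene names in the table. Of these, 37 are ligands and 34 are receptors, and 1 name, Plxna4os1, is a noncoding gene antisense to Plxna4. The sources used here do not give whether the authors' counting used the strand, and reads of Plxna4os1 and Plxna4 may not be told apart. In all, 71 of the 72 had a mean of at least 10 normalized read equivalents and were tested. The ephrin Efna4, with a mean of 6.06, was below that minimum, and the lowest member above it was Epha1 at 23.1.

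The mutant group held 3 libraries from mice whose genotype is labelled PTCHD1 mutant, and the wild-type group held 3 libraries. All 6 came from total RNA of whole hippocampus at postnatal day 30 in the strain the labels write as C57B1/6J. The labels give no allele, sex, litter or lane, and do not say that each library came from a separate animal. The p-values below therefore measure the spread between these libraries, which may be technical. Values are normalized read equivalents, the deposited normalized coverage of a transcript divided by a read length of 42 bases that was read from the values. Before normalization and over 1 transcript row per gene, the libraries summed to between 12450000 and 23750000 read equivalents. Because whole tissue was used, fewer cells of a type and less RNA per cell cannot be told apart.

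The mutated gene was lower in every mutant library. Ptchd1, which encodes a patched-domain membrane protein, had 181, 150.0 and 130.0 in the mutants, against 323, 389 and 411 in wild type. Its log2 change was -1.28 ± 0.14 (SE, limma adjusted p = 0.0342), and the adjusted p lay between 0.00338 and 0.371 when 1 library was left out. The altered part of the gene is not named in the labels. Hippocampal markers were present in both groups: the summed level of 5 pyramidal neuron markers was 47523 to 50168 in the mutants and 41209 to 43840 in wild type, and that of 6 dentate granule neuron markers was 6831 to 8742 in the mutants and 8367 to 9160 in wild type.

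Guidance molecules are cues and receptors that attract or repel growing axons and, in the mature brain, also act at synapses. Secreted class 3 semaphorins signal through complexes of a neuropilin and a plexin, while membrane-bound semaphorins bind plexins directly. Ephrins and Eph receptors sit on opposing cells and can signal in both directions. Slits act mainly as repellents through Robo receptors, and netrins attract through Dcc and repel through Unc5 receptors. In the hippocampus these systems are known for placing mossy fibres and other layered inputs and for shaping dendritic spines.

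No guidance gene passed the adjusted threshold of 0.05, and most differences were small and positive. Each log2 change below is mutant over wild type, with the limma standard error after the ± sign. At an adjusted p under 0.05 limma gave 0 members higher and 0 members lower, beside 0% and 0.00636% of the 15717 genes tested. The smallest adjusted p was 0.109, for Unc5a. At an unadjusted limma p under 0.05, 16 members were higher in the mutants and 3 were lower. These are 22.5% and 4.23% of the members, beside 9.01% and 9.7% of all genes tested. In 17 members every mutant library lay above every wild-type library, beside 12.3% of all genes, and in 3 every mutant library lay below, beside 12%. Of the 71 log2 changes, 50 were positive, and their median was 0.12. Over all genes tested 46.8% were positive, with a median of -0.02. Without wild-type replicate 3 the count at an unadjusted p under 0.05 was 10 higher and 2 lower, beside 6.15% and 5.57% of all genes tested without it.

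**Figure D1:**
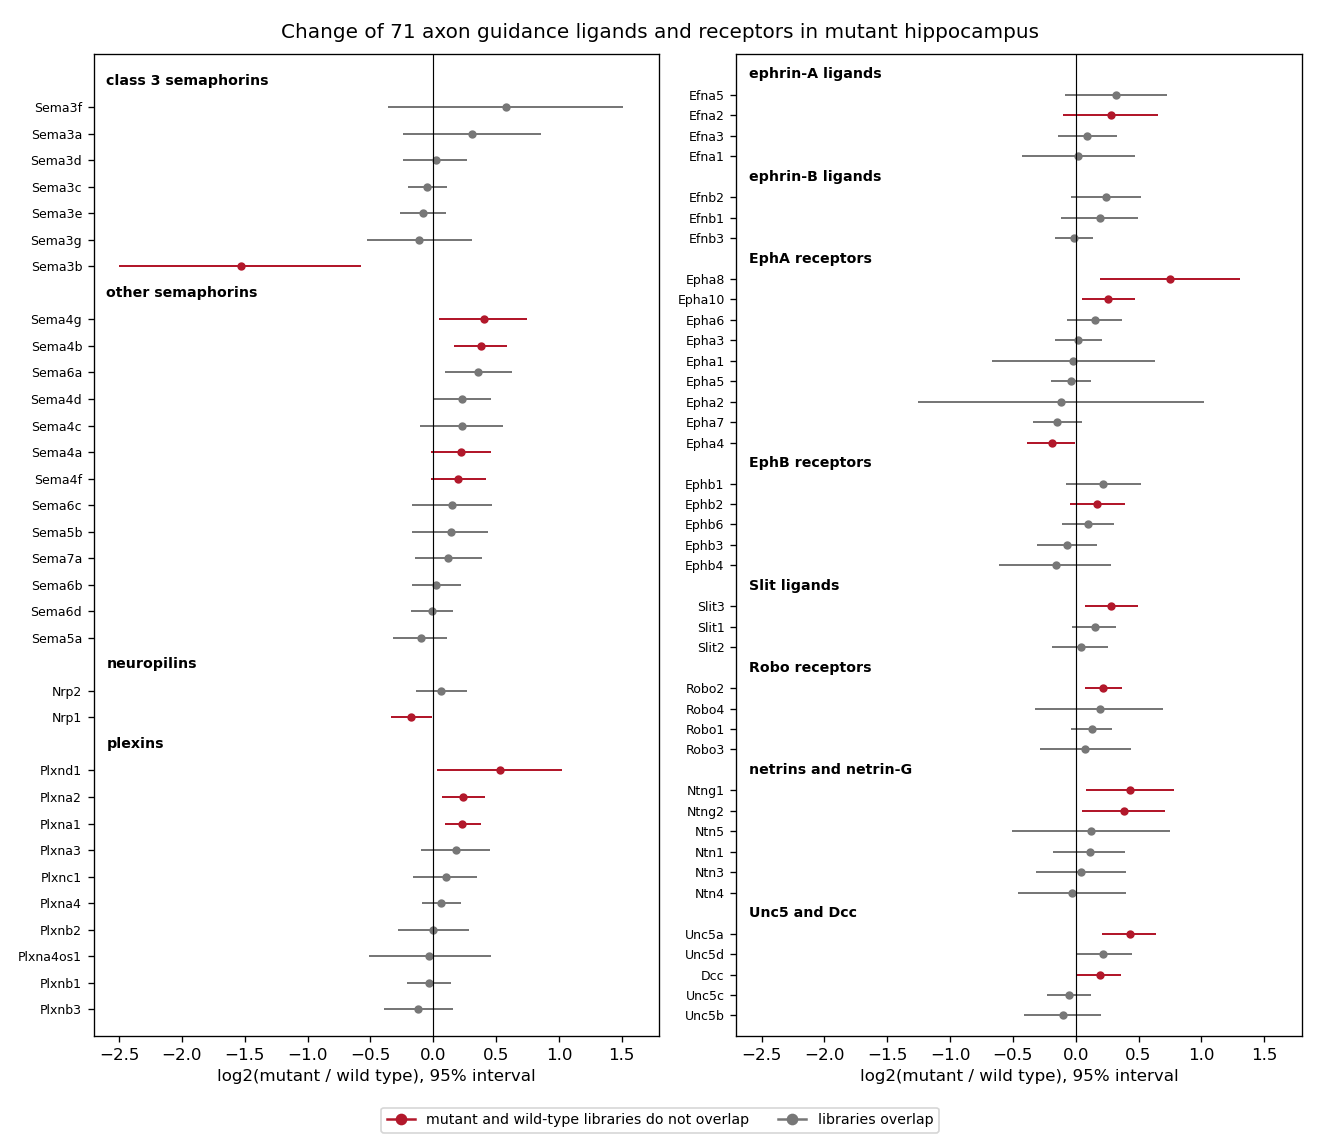
Log2 change (mutant over wild type) of each tested guidance gene with its 95% interval from limma, grouped by family. Red marks genes whose 3 mutant and 3 wild-type libraries do not overlap. Most points of the membrane-bound semaphorins, Slits and Robos lie right of 0, while Sema3b stands alone at -1.53.

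The share of positive differences was smaller after a joint correction for GC content and length. Member transcripts had a median GC content of 56.1% and a median length of 4667 bases, against 50.2% and 2962 bases over all genes tested. Genes are not independent replicates; across them, the deviation of a library from the 6-library mean had a Spearman correlation with GC content of 0.431, 0.012 and 0.084 in mutant replicates 1, 2 and 3, and of -0.009, -0.478 and -0.18 in the wild-type replicates in the same order. The median deviation of the members was 0.12, 0.07 and -0.01 in these mutant libraries and -0.00, -0.10 and -0.06 in these wild-type libraries. After each library was corrected for GC content and length, the members' median log2 change was 0.01 and 39 of 71 were positive. The counts at an unadjusted p under 0.05 became 7 higher and 7 lower, beside 6.94% and 8.93% of all genes under the same correction.

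Robo2, Ntng1 and Sema6a kept log2 changes of 0.22, 0.46 and 0.28 under that correction, against 0.22, 0.43 and 0.36 before it. Plxna1 had 0.02 after the correction, against 0.23 before it. The semaphorin receptor Plxnb1, with a log2 change of -0.03 before correction, had -0.25 after it (unadjusted p = 0.00333). Sema6b had 0.02 before and -0.17 after (unadjusted p = 0.0252), so its sign, unlike that of Plxnb1, depended on the correction. Plxnb1 and Sema6b were singled out after their values were seen.

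**Figure D2:**
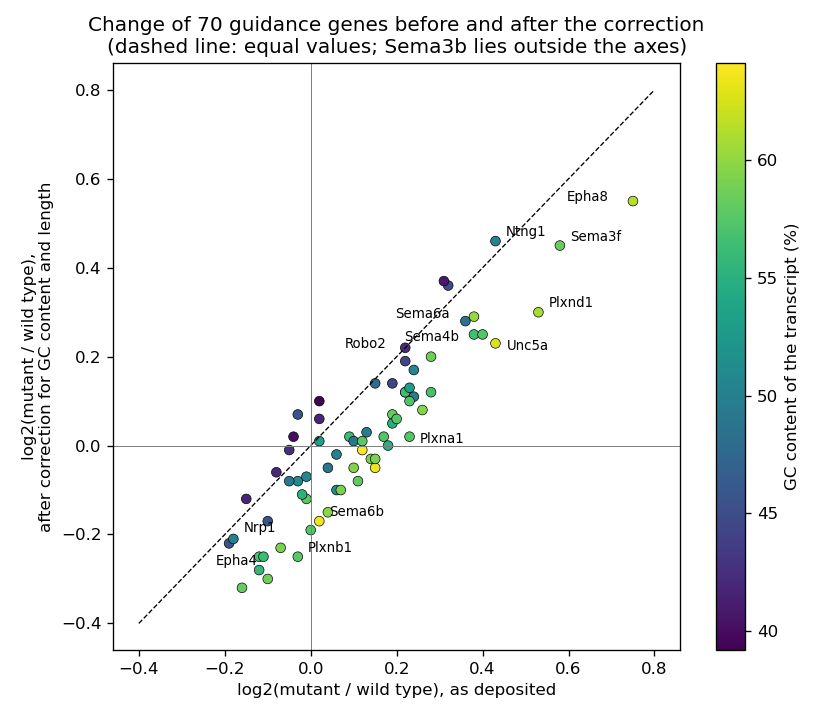
Log2 change of each guidance gene before (horizontal axis) and after (vertical axis) correction for GC content and length, coloured by the GC content of its transcript. Points of high GC content lie below the line of equal values, as Plxna1 does at 0.23 and 0.02, and the low-GC Robo2 lies on it at 0.22.

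Marker sums of some cell types also did not overlap between the groups. The sums were not tested, nor was their part in these counts. The pyramidal neuron sum did not overlap, with 4 of its 5 markers higher at an unadjusted p under 0.05. For 8 markers of GABAergic interneurons the sum was 12506 to 13173 in the mutants and 11484 to 12413 in wild type. Of these 8 markers 6 were positive, and 2 were higher at an unadjusted p under 0.05. The 5 neocortex markers summed to 3090 to 3655 in the mutants and 2835 to 3004 in wild type, all 5 with positive changes. Of these 5, 2 had an unadjusted p under 0.05, Cux2 (log2 change 0.72) and Tbr1 (0.30). Rorb had 0.01, Fezf2 had 0.13, and Rspo1 had 0.22 at a level of 4.16 to 16.9. Oligodendrocyte markers, with 1 of 9 positive, summed to 63919 to 79043 in the mutants and 75330 to 87538 in wild type, and so overlapped.

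Promoter windows are shown for 5 guidance genes whose groups did not overlap and that have 1 promoter entry, 3 higher and 2 lower in the mutants, chosen after their values were seen. RefSeq promoters on GRCm38.p6 were matched by symbol for 61 of the 72 members, with 77 promoters in all. Each window is the 250 bases before the annotated start, 5′ to 3′ on the gene's strand. Unc5a lies at chr13:54949161-54949410 (+), Plxna2 at chr1:194619579-194619828 (+), Slit3 at chr11:35121206-35121455 (+), Nrp1 at chr8:128358823-128359072 (+) and Epha4 at chr1:77515089-77515338 (-). Capitals mark GC boxes, with the letters GGGCGG on either strand, and in Plxna2 also the Egr motif GCGTGGGCG, which overlaps a GC box there.
Unc5a: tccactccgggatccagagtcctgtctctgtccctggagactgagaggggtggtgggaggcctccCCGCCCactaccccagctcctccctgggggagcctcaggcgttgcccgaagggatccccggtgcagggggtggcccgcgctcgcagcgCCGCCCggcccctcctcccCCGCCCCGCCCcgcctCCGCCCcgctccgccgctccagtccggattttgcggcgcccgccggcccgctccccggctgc
Plxna2: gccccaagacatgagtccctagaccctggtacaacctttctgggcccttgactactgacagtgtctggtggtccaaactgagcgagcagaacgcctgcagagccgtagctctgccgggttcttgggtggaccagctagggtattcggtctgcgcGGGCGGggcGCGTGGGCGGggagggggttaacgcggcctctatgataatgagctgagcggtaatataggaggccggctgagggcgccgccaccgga
Slit3: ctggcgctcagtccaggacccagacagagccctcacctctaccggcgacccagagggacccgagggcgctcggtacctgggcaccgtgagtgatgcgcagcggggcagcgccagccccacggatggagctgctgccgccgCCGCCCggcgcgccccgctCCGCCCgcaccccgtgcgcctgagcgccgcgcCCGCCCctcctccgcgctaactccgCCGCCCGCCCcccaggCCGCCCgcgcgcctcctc
Nrp1: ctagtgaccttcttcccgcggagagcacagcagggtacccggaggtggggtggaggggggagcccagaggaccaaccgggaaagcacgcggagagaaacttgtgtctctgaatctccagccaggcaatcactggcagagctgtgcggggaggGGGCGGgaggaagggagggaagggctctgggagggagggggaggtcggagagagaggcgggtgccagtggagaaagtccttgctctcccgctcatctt
Epha4: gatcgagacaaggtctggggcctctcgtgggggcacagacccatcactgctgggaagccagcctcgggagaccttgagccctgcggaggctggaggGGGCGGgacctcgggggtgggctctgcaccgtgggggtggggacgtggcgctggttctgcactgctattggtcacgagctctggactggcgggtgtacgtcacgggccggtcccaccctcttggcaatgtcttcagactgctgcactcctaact
The windows hold 5 GC boxes in Unc5a, 2 in Plxna2, 6 in Slit3, and 1 each in Nrp1 and Epha4. A GC box was present in 54 of the 77 member promoters (70.1%), beside 10756 of all 32851 promoters (32.7%). The Egr motif was present in 2 member promoters (2.6%), those of Plxna2 and Efna3, beside 0.536% of all promoters. A cyclic AMP response element, TGACGTCA, was present in 1 (1.3%), that of Epha2, beside 1.55% of all. These are matches of letters in a window and show no binding. The set of all promoters was not filtered by gene type or by expression in hippocampus. It may differ from the members in both, so the shares do not compare like genes.

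Among the semaphorins, the membrane-bound and secreted classes differed in their counts. Of 13 semaphorins outside class 3, 11 had a positive log2 change and the median was 0.20. At an unadjusted limma p under 0.05, 4 of them were higher and 0 lower, beside 9.01% and 9.7% of all genes tested. In the 7 class 3 genes the median was -0.05, with 3 positive and 4 negative changes, and at that p 0 were higher and 1 was lower. After the GC and length correction the medians were 0.06 and -0.01. The difference between the classes was not tested.

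Sema4b (NM_013659), a transmembrane semaphorin that can bind the postsynaptic scaffold PSD-95, had 292, 286 and 304 in the mutants, against 219, 233 and 228 in wild type. Its groups were far apart relative to their spread, with a log2 change of 0.38 ± 0.09 (unadjusted p = 0.00231, adjusted p = 0.12). The change was 0.25 after the correction, and 0.35 to 0.40 when 1 library was left out. Sema6a, a ligand of plexin-A receptors that is also made by oligodendrocytes, had 839.6, 902 and 650.0 in the mutants, against 668, 607 and 578 in wild type. Mutant replicate 3 lay below the highest wild-type library, and the log2 change was 0.36 ± 0.12 (adjusted p = 0.156). The authors list Sema6a among the oligodendrocyte genes of their higher set. The oligodendrocyte marker sum, given above, overlapped between the groups, and the part of these cells in the Sema6a result was not tested. Sema4g, named after its values were seen, had 381, 252 and 247 in the mutants, against 225, 213 and 217 in wild type. Mutant replicate 1 set most of that difference: the log2 change was 0.40 with it and 0.19 without it.

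Sema5a, a membrane semaphorin with thrombospondin repeats, had 2489, 3240 and 2891 in the mutants, against 3265, 3115 and 2843 in wild type, and the groups overlapped. Sema6d, which can bind Plxna1, had 2041, 2243 and 2014 in the mutants, against 2257, 2021 and 2057 in wild type, with a log2 change of -0.01 and a 95% interval of -0.17 to 0.15. The other Sema4 genes, Sema4a, Sema4c, Sema4d and Sema4f, all had log2 changes of 0.20 to 0.23, and 0.06 to 0.13 after the GC and length correction. Every mutant library lay above wild type for Sema4a and Sema4f. For Sema5b, Sema6b, Sema6c and Sema7a the changes were 0.02 to 0.15.

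In class 3, Sema3b was the member with the most negative change. It had 28.1, 21.0 and 16.2 in the mutants, against 129, 29.4 and 67.0 in wild type. The log2 change was -1.53 ± 0.43 (unadjusted p = 0.00482, adjusted p = 0.131). Wild-type replicates 1 and 3, the highest for Sema3b, were also the highest for choroid plexus markers. The 11 markers of that tissue, which makes cerebrospinal fluid, summed to 3101, 1354 and 1356 in the mutants, against 57097, 999 and 21278 in wild-type replicates 1, 2 and 3. None of the 11 had a positive change, 9 were lower at an unadjusted p under 0.05, and none had a mean under 10 read equivalents. The part of this tissue in the Sema3b result was not tested. Without wild-type replicate 2, the lowest wild-type library for Sema3b, the log2 change was -2.08 (limma adjusted p = 0.0368). With wild-type replicates 1 and 3 left out, a choice that removes its highest libraries and leaves 1 wild-type library, it was -0.45.

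The other class 3 genes overlapped between the groups. Sema3e, the ligand that binds Plxnd1 without a neuropilin, had 2278, 2524 and 2488 in the mutants, against 2438, 2855 and 2449 in wild type (log2 change -0.08 ± 0.08). Sema3c, a ligand of both neuropilins, had 1126, 1082 and 1124 in the mutants, against 1152, 1172 and 1118 in wild type (log2 change -0.05 ± 0.06). Sema3a had 357 in mutant replicate 1 and 199 and 164 in the other mutants, against 149.9 to 204 in wild type. Its log2 change of 0.31 was -0.02 without that library. Sema3f had 37.3, 130.1 and 54.6 in the mutants, against 56.6, 26.1 and 53.0 in wild type. Its log2 change of 0.58 ± 0.42 was 0.07 without mutant replicate 2. Sema3d and Sema3g had log2 changes of 0.02 and -0.11.

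Among the semaphorin receptors, Plxna1 and Plxna2 were higher and Nrp1 was lower in every mutant library, with no adjusted p under 0.05. Plxna1, a partner of both neuropilins, had 2734, 2814 and 2653 in the mutants, against 2438, 2290 and 2244 in wild type. The log2 change was 0.23 ± 0.06 (unadjusted p = 0.00331, adjusted p = 0.127), and 0.02 after the GC and length correction. Plxna2, a receptor of Sema6a in mossy fibre targeting, had 4856, 4353 and 4055 in the mutants, against 3794, 3734 and 3702 in wild type. All mutant libraries lay above wild type, with a log2 change of 0.24 ± 0.07 (adjusted p = 0.144), and 0.11 after the correction. Its window above is the one with both a GC box and an Egr motif.

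Plxna4, which also takes part in mossy fibre placement, had 5563, 6310 and 5574 in the mutants, against 5622, 5498 and 5530 in wild type, with a log2 change of 0.06, and -0.10 after the correction. Plxna3 had 0.18, with 0.00 after the correction and 0.04 without mutant replicate 1. Plxnd1, the Sema3e receptor, had 919, 479 and 451 in the mutants, against 434, 356 and 426 in wild type. Its groups did not overlap, but mutant replicate 1 stood far above the other mutants, and the log2 change was 0.53 ± 0.22 with that library and 0.20 without it. Plxnd1 was singled out after its values were seen. Of the B plexins, Plxnb3, a receptor reported for Sema5a, had 349, 408 and 459 in the mutants, against 491, 396 and 427 in wild type (log2 change -0.12). Plxnb1, Plxnb2, Plxnc1 and Plxna4os1 had changes between -0.03 and 0.10.

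Nrp1, the co-receptor of Sema3a and of vascular growth factor, had 3663, 3927 and 3815 in the mutants, against 4108, 4715 and 4105 in wild type. Every mutant library lay below every wild-type library, and the log2 change was -0.18 ± 0.07 (unadjusted p = 0.0286, adjusted p = 0.216). It was -0.21 after the GC and length correction, and -0.11 without wild-type replicate 2, the highest library. The authors list Nrp1 among the endothelial genes of their lower set. The 7 endothelial markers summed to 3471 to 3596 in the mutants and 3414 to 3971 in wild type, and so overlapped. Nrp2, the co-receptor of Sema3f, had 1654, 1359 and 1458 in the mutants, against 1509, 1455 and 1305 in wild type (log2 change 0.06, 95% interval -0.13 to 0.26).

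**Figure D3:**
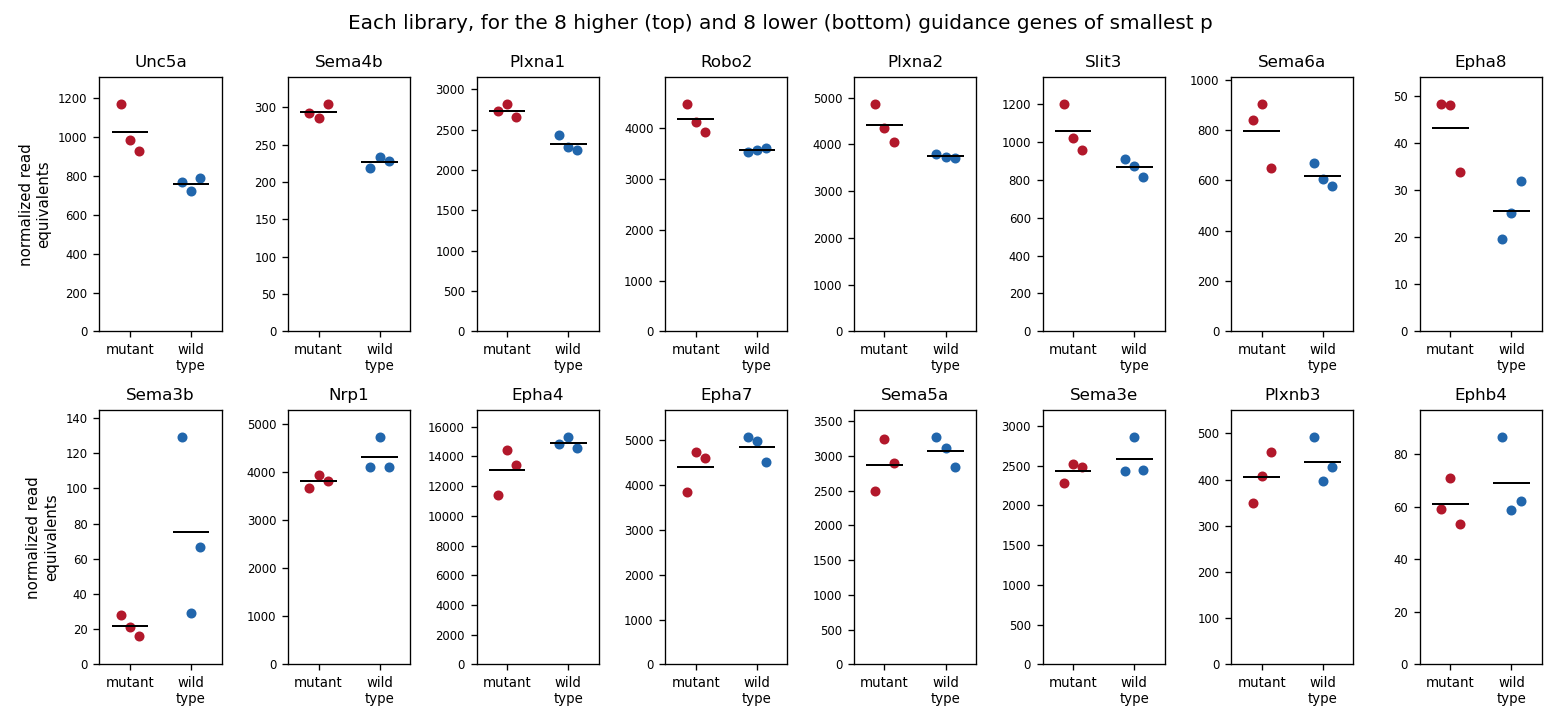
Normalized read equivalents in each library (mutant left, wild type right) for the 8 higher and 8 lower guidance genes of smallest p, with group means as lines. In the top row only Sema6a overlaps between groups; in the bottom row Sema3b, Nrp1 and Epha4 do not overlap.

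The Eph receptors went both ways. Of 9 EphA genes 4 had positive changes and the median was -0.02; of 5 EphB genes 3 did, with a median of 0.10. Epha4, a receptor of both ephrin types that acts at hippocampal spines, had 11385, 14449 and 13405 in the mutants, against 14869, 15278 and 14562 in wild type. All mutant libraries were lower, with a log2 change of -0.19 ± 0.08 (unadjusted p = 0.0413, adjusted p = 0.247). It was -0.22 after the GC and length correction and -0.10 without mutant replicate 1. Epha7 had 3857, 4740 and 4607 in the mutants, against 5068, 4992 and 4517 in wild type, with overlap and a log2 change of -0.15, and -0.05 without mutant replicate 1. In both genes mutant replicate 1 was the lowest library. It was also the lowest for the summed dentate granule neuron (6831), CA3 (3524) and oligodendrocyte (63919) markers. Of the dentate markers, Prox1 was not lowest there, with 1273 against 1161 in wild-type replicate 3. Of the CA3 markers, Grik4 was at its highest in mutant replicate 1, at 673. Of the oligodendrocyte markers, Mbp had 24246 in mutant replicate 1, against 23358 in wild-type replicate 2. The part of these cells in the Epha4 and Epha7 values was not tested.

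Epha8, a receptor at low level here, had 48.2, 48.0 and 33.8 in the mutants, against 19.6, 25.2 and 31.9 in wild type. The groups did not overlap but came within 2 read equivalents of each other, and the log2 change of 0.75 ± 0.25 (adjusted p = 0.161) had a 95% interval of 0.20 to 1.30. Epha10, an Eph receptor without an active kinase, had a log2 change of 0.26 with no overlap and 0.08 after the correction. Epha6 had 5630, 7060 and 6164 in the mutants, against 5746, 6214 and 5039 in wild type (log2 change 0.15, and 0.06 without mutant replicate 2). For Epha1, Epha2, Epha3 and Epha5 the changes were -0.12 to 0.02; Epha2, at 9.88 to 42.1 over the 6 libraries, had a 95% interval of -1.25 to 1.01, which spans both directions.

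In the EphB group no gene had an unadjusted p under 0.05. Ephb1 had 655, 875 and 596 in the mutants, against 663, 566 and 573 in wild type (log2 change 0.22). Mutant replicate 2 set most of that difference, and without it the change was 0.06. Ephb6, which lacks kinase activity, had 1030, 843 and 1010 in the mutants, against 842, 911 and 926 in wild type (log2 change 0.10). Ephb4, known from blood vessels, had 59.0, 70.8 and 53.4 in the mutants, against 86.3, 58.7 and 62.0 in wild type (log2 change -0.16). All of these overlapped between groups. The groups of Ephb2 did not overlap, but its lowest mutant and highest wild-type libraries were each 488 when rounded. Ephb2 had a change of 0.17 and Ephb3 one of -0.07. After the GC and length correction these were 0.02 and -0.23.

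The ephrins had mostly positive changes of which no unadjusted p was under 0.05. All 4 tested ephrin-A genes were positive, with a median of 0.19, and 2 of 3 ephrin-B genes, with a median of 0.19. Efna3, an astrocytic ligand of Epha4, had 531, 411 and 443 in the mutants, against 429.9, 437 and 425 in wild type (log2 change 0.09). Efna5 had 171, 162 and 117 in the mutants, against 94.9, 133 and 132 in wild type (log2 change 0.32, 95% interval -0.08 to 0.72, and 0.16 without wild-type replicate 1). Efnb2 had 883, 677 and 647 in the mutants, against 553, 654 and 649 in wild type (log2 change 0.24, and 0.10 without mutant replicate 1). Efnb3 was the steadiest of these, with 1290, 1281 and 1237 in the mutants, against 1252, 1340 and 1250 in wild type (log2 change -0.01, 95% interval -0.16 to 0.13). Mutant replicate 1 was the highest library for Efna3, Efna5 and Efnb2. Efna1, Efna2 and Efnb1 had changes of 0.02 to 0.28, and Efna4 was listed at 2.91 to 8.24 in the 6 libraries.

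All Slit and Robo genes had positive log2 changes, of 0.04 to 0.28 for the 3 Slits and 0.07 to 0.22 for the 4 Robos. After the GC and length correction 1 of the 3 Slits and 3 of the 4 Robos were still positive. Slit3 had 1197, 1018 and 958 in the mutants, against 911, 871 and 814 in wild type. The groups did not overlap, and the log2 change was 0.28 ± 0.09 (unadjusted p = 0.0103, adjusted p = 0.151), with 0.12 after the correction. Slit1, the Slit with the highest level here, had 3411, 3181 and 3005 in the mutants, against 3125, 2837 and 2702 in wild type (log2 change 0.15, and -0.03 after the correction). Slit2 had 1570, 1303 and 1355 in the mutants, against 1295, 1556 and 1270 in wild type (log2 change 0.04).

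Robo2, a Slit receptor, had 4459, 4112 and 3919 in the mutants, against 3534, 3573 and 3595 in wild type. The wild-type libraries lay within a narrow band below all mutants, with a log2 change of 0.22 ± 0.06 (unadjusted p = 0.00579, adjusted p = 0.137). The value after the correction, 0.22, was the same, and leaving out 1 library gave 0.17 to 0.26. Robo1 had 2362, 2337 and 2119 in the mutants, against 2138, 2145 and 1956 in wild type (log2 change 0.13, and 0.08 without wild-type replicate 3). Robo3, which modifies Slit responses in crossing axons, and Robo4, known from endothelium, had 0.07 and 0.19 with overlapping libraries.

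The netrin system held the member of smallest p. Unc5a (NM_153131), a receptor that mediates netrin repulsion, had 1167, 984 and 926 in the mutants, against 766, 719.8 and 790.5 in wild type. The lowest mutant library exceeded the highest wild-type library by more than the wild-type range. The log2 change was 0.43 ± 0.09 (unadjusted p = 0.000792, adjusted p = 0.109), with 0.23 after the GC and length correction and 0.33 to 0.50 when 1 library was left out. The authors list Unc5a among CA1 and CA2 pyramidal genes of their higher set, and the pyramidal marker sum, given above, was also higher in every mutant library. The sums of 5 CA1 markers, 7526 to 8395 in the mutants and 7929 to 7999 in wild type, overlapped.

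Dcc, the attractive netrin receptor, had 1917, 1938 and 1849 in the mutants, against 1672, 1823 and 1531 in wild type, with no overlap and a log2 change of 0.19 ± 0.07 (unadjusted p = 0.0305, adjusted p = 0.221). Without wild-type replicate 3, the lowest library, the change was 0.12 (limma unadjusted p = 0.159). Unc5d had a log2 change of 0.22 with overlap, and 0.13 without mutant replicate 1. Unc5c had 2397, 2675 and 2549 in the mutants, against 2513, 2886 and 2515 in wild type (log2 change -0.05), and Unc5b had -0.10, so the Unc5 receptors did not share 1 direction. After the correction Unc5a and Dcc kept an unadjusted p under 0.05 (0.00537 and 0.0352), and Unc5b had -0.30 with a p of 0.0447.

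Netrin-G proteins are membrane-anchored relatives of netrins that bind Lrrc4 family partners and not Dcc. Ntng1, the ligand of Lrrc4c, had 1579, 1003 and 984 in the mutants, against 828, 926 and 829 in wild type. The groups did not overlap, and the log2 change was 0.43 ± 0.15 (adjusted p = 0.18), with 0.46 after the correction and 0.21 without mutant replicate 1. Ntng2, the ligand of Lrrc4, had 308, 247 and 254 in the mutants, against 247, 173 and 205 in wild type (log2 change 0.38 ± 0.14, adjusted p = 0.201). The groups of Ntng2 did not overlap, but its lowest mutant and highest wild-type libraries were each 247 when rounded. Mutant replicate 1 was the highest library for Ntng1 and Ntng2. The neocortex marker sum, whose list shares Rorb with that of the thalamus, was 3655, 3231 and 3090 in the mutants (replicates 1 to 3), against 2854, 2835 and 3004 in wild type. That of 5 thalamus markers was 1937, 2355 and 1778 in the mutants, against 2187, 2012 and 1833 in wild type. Rorb made up 1187 to 1386 of the thalamus sums, and the other markers were uneven. Tcf7l2 had 414 in mutant replicate 2 and 48.9 to 69.4 in the other libraries. Prkcd and Zic1 were highest in wild-type replicate 1, at 515 and 311, and Lef1 in mutant replicate 1, at 119. The part of neocortex and thalamus in the netrin-G values was not tested. The classical netrins Ntn1, Ntn3, Ntn4 and Ntn5 had changes of -0.03 to 0.12, all with overlap.

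**Figure D4:**
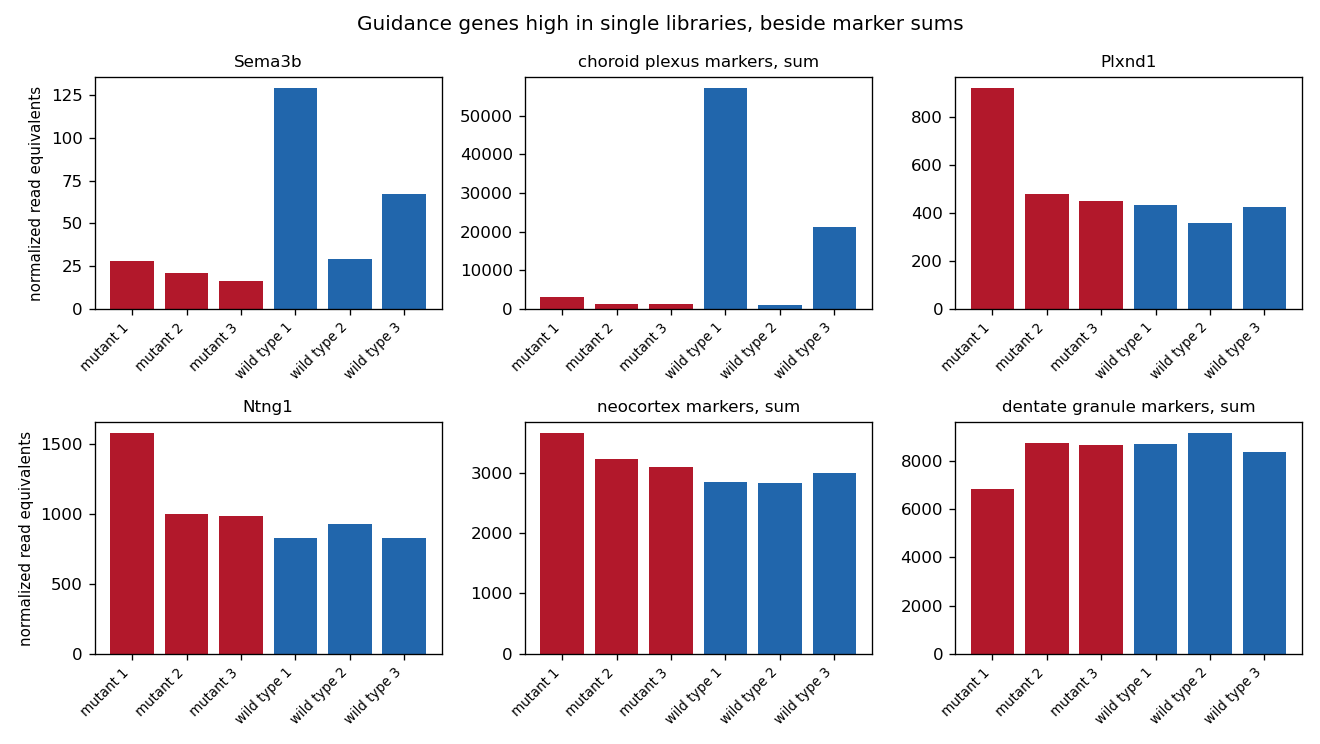
Normalized read equivalents per library (mutants left, wild type right) of Sema3b, Plxnd1 and Ntng1, with the summed choroid plexus, neocortex and dentate granule neuron markers. Sema3b and the choroid plexus sum are both highest in wild-type replicates 1 and 3. Plxnd1 and Ntng1 are highest in mutant replicate 1, where the dentate sum is lowest. Links between these values were not tested.

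Levels per kilobase of transcript, over all 6 libraries, spanned from 3.79 ± 1.25 for Efna4 to 2211 ± 225 for Epha4 (SD, n = 6). Below Epha4 came Epha6 at 1520 ± 173 and Nrp1 at 1127 ± 102 read equivalents per kilobase, each apart from its neighbours by more than their SDs. Epha7 at 686 ± 64.5, Unc5c at 666 ± 43.9, Ntng1 at 633 ± 174 and Slit1 at 603 ± 50.2 followed, and these did not differ beyond their spread. The place of Ntng1 depended on the group, with 734 ± 209 in the mutants and 531 ± 34.8 in wild type (SD, n = 3 each), where Epha7 had 652 ± 70.6 and 720.3 ± 44.3. Among the ligands of these receptors, the ephrin-A with the highest level, Efna3, stood at 189 ± 18.2 read equivalents per kilobase, and the classical netrins at 17.7 to 24.8. The low end also held Epha2 at 6.51 ± 3.51, Epha1 at 7.07 ± 1.55 and Epha8 at 7.31 ± 2.49, which did not differ beyond their spread.

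**Figure D5:**
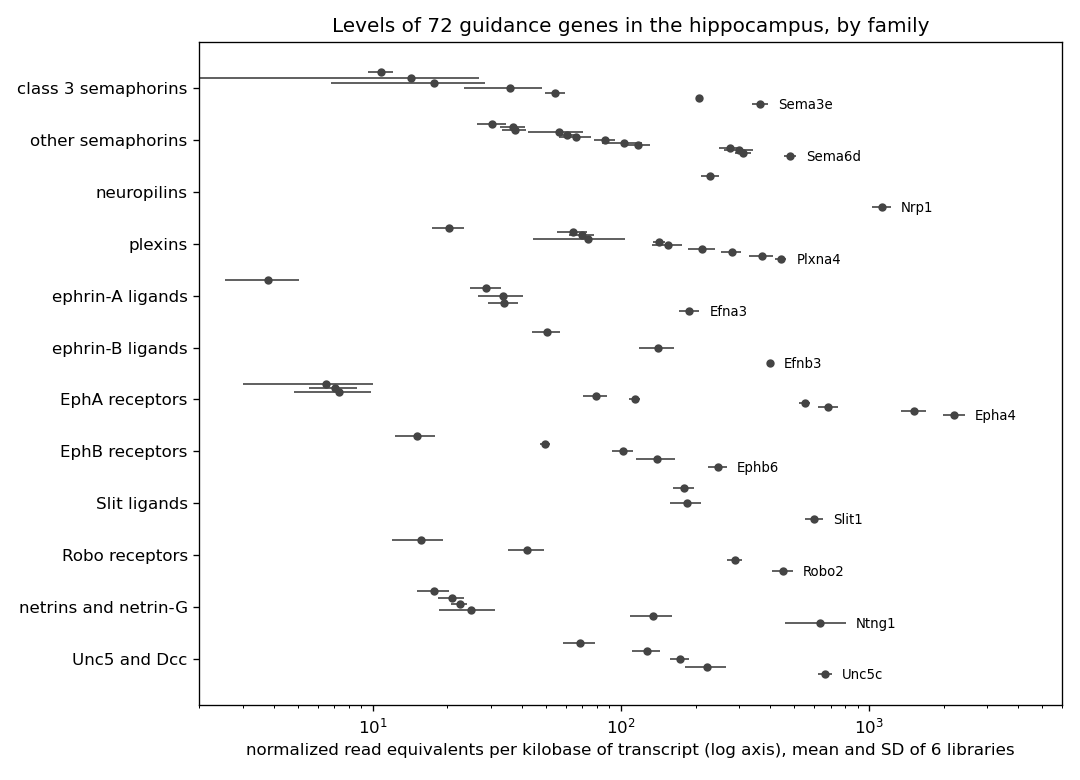
Mean level of each guidance gene over the 6 libraries in normalized read equivalents per kilobase of transcript (log axis) with the SD, by family, with the highest gene of each family named. EphA receptors span the widest range, from Epha2 at 6.51 to Epha4 at 2211.

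Co-receptors, adhesion partners and cytoskeletal effectors of these systems were counted from a list of 77 genes, all in the table and tested. As with the members, 0 passed the adjusted threshold. At an unadjusted p under 0.05, 26 were higher and 0 were lower (33.8% and 0%), beside 9.01% and 9.7% of all genes. The median log2 change was 0.12 and 53 were positive. After the GC and length correction 14 were higher and 0 lower at that p, beside 6.94% and 8.93% of all genes so corrected. The median log2 change of the partners was then 0.05.

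Limk1, the kinase that phosphorylates cofilin, had 617, 546 and 524 in the mutants, against 397, 363 and 451 in wild type (log2 change 0.48 ± 0.10, adjusted p = 0.109). Srgap3, a GTPase-activating protein of the Slit and Robo pathway, had 5626, 5755 and 5386 in the mutants, against 4766, 4617 and 4540 in wild type (0.27 ± 0.06 on the log2 scale, adjusted p = 0.109). Farp1, an effector linked to class A plexins, had 1312, 1077 and 1110 in the mutants, against 952, 857 and 839.5 in wild type (0.40 ± 0.09, log2). In these 3 genes and in Flrt1 every mutant library lay above every wild-type library. Flrt1, of a family that binds Unc5 receptors, had 395, 367 and 402 in the mutants, against 283, 298 and 317 in wild type (0.37 ± 0.09, log2). After the GC and length correction the log2 changes were 0.35 for Limk1, 0.14 for Srgap3, 0.26 for Farp1 and 0.23 for Flrt1.

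The 4 partners of smallest p with negative changes had no unadjusted p under 0.05. Chn1, a Rac GTPase-activating protein downstream of Epha4, had 23554, 24383 and 23777 in the mutants, against 24543, 26669 and 26082 in wild type (log2 change -0.11). Pak2, a kinase activated by Rac and Cdc42, had 921, 1071 and 1049 in the mutants, against 1135, 1112 and 1074 in wild type (log2 change -0.13). Neither overlapped between groups. Vav3, an exchange factor in ephrin signalling, had 343, 466 and 383 in the mutants, against 449, 457 and 443 in wild type. Farp2, an exchange factor that binds plexin-A, had 256, 259.9 and 306 in the mutants, against 285, 322 and 309 in wild type. The groups of Vav3 and Farp2 overlapped, with log2 changes of -0.19 and -0.16.

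The authors' deposited table gave more calls than limma. Its p-values, adjusted here over the same 15717 genes, put 7 guidance genes under 0.05 as higher in the mutants and 0 as lower, beside 4.57% and 3.23% of all genes. The adjusted values from the authors' deposited table were 0.000285 for Unc5a, 0.00609 for Plxna1, 0.00955 for Robo2, 0.0115 for Plxna2, 0.0138 for Sema6a, 0.0217 for Slit3 and 0.0332 for Sema4b. Of these 7, Unc5a, Robo2, Sema6a and Sema4b had a limma unadjusted p under 0.05 after the GC and length correction, and Plxna1, Plxna2 and Slit3 did not. Among the partners, the same table gave 19 higher and 0 lower, beside the same 4.57% and 3.23% of all genes. The threshold of 0.05 on these adjusted values was set here and is not the authors' own: the authors' deposited ontology tables name 10 guidance genes in any term of the higher set, among them Ntng1, Ntng2 and Sema4g, and 2 of the lower set, Nrp1 and Sema3b.

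In the authors' deposited ontology table for higher genes, the term axon guidance held 56 genes at a fold enrichment of 3.61, with a Bonferroni-corrected p of 1.42e-12. Of these 56, 6 were ligands or receptors of the families described here: Plxna1, Plxna2, Robo2, Sema6a, Slit3 and Unc5a. The other genes of the term in that table included ankyrins, calcium channel subunits and cytoskeletal regulators such as Limk1, Src and Tiam1. For lower genes, the authors' deposited ontology table gave the term 16 genes at a fold of 1.23, with a corrected p of 1, among them Nrp1 and Sema3b.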

How the data were processed

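Stranded libraries for single-end reads were made from total RNA after removal of ribosomal RNA and run 4 to a lane, per the labels' protocols. The submitters' processing notes name GSNAP, DESeq2 and mm9; how reads were counted was not given in the sources used here. The authors' deposited expression table holds a normalized signal per transcript. Every value was a whole multiple of a step of its library (100% within 0.01 of a step, steps of 0.759 to 1.42) and multiples were frequent at 42, so the signal was taken for the base coverage of reads 42 bases long. No source used here states that unit, and a count model was not run, so that limma, set out for this case, was used. The number of per-sample columns left out was 0. The authors' deposited table also gives a p-value and a score per transcript; the score carries the sign of the change. The authors' deposited ontology and cell type tables give a fold enrichment (ratio), a p-value and a count of genes per term.

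The members and gene lists were chosen with earlier results of these data known. For each gene the RefSeq row of highest mean was kept; the 72 members had 127 rows, and among 25 members with more than 1 row, 2 (Ntn5 and Sema3b) had rows that differed by more than 0.1 in log2 change. Genes with a mean of at least 10 were tested in limma 3.58.1 (R 4.3.3), two-sided, on values as log2(value + 1), with a mean-variance trend and Benjamini-Hochberg adjustment over 15717 genes. The log2 scale with a pseudocount of 1 understates changes of low genes. With 3 libraries per group an exact permutation test of 1 gene cannot give a p below 0.1. GC content and length came from GENCODE M21 transcripts on GRCm38 for 98.2% of tested genes, and the correction subtracted a spline with 5 degrees of freedom in each. The tests were checked on simulated data, with genes drawn independently and no GC trend or outlying tissue in single libraries. That check therefore cannot tell how the tests behave under the GC trends and choroid plexus levels given above. Named members were the 8 per direction of smallest p and the 2 of highest mean in each family; of the partners, the 4 per direction of smallest p. Sema4g, Plxnd1, Sema3a, Epha10 and others given beside them were chosen after their values were seen.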

Additional observations from a re-analysis of the deposited data

How the results depend on the processing

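Of 576 values of the 34 named members over the 17 alternatives, 548 kept their sign and 28 did not, all of them within 0.15 of 0, and 7 passed an adjusted p of 0.05. The count of members called was 0 in limma and moved to 5 with library quality weights (4 higher and 1 lower, beside 2.94% and 2.18% of all genes tested), to 1 with mutant replicate 1 and wild-type replicate 2 left out (a choice made after seeing the data), to 7 with the authors' p-values, and lay between 0 and 1 when 1 library was left out. The 1 was Sema3b, without wild-type replicate 2. With the weights the called members were Unc5a, Plxna1, Sema4b, Sema6a and Sema3b. For the partners the weights gave 9, beside 5.12% of all genes in either direction, and the authors' p-values 19, beside 4.57% higher and 3.23% lower. The count at an unadjusted p under 0.05, 19, lay between 12 (without wild-type replicate 3, beside 11.7% of all genes) and 23 when 1 library was left out. It was 5, beside 11% of all genes, with wild-type replicates 1 and 3 left out; there 1 wild-type library remained, and 44 members did not overlap, against 20 with all libraries, beside 62.8% and 24.3% of all genes. The median log2 change of members was 0.01 after the GC and length correction. Ptchd1 no longer passed with quantile normalization (-1.25, adjusted p = 0.0556), with no filter (-1.28, 0.134), after the GC and length correction (-1.21, 0.0688) or with wild-type replicates 1 and 3 left out (-1.35, 0.406, a change no smaller but with 1 wild-type library left, so that this p says nothing of stability); leaving out 1 library gave -1.41 to -1.17, and the call ended without mutant replicate 2 and without wild-type replicates 1 or 3.

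Log2 changes that turned sign after the GC and length correction were Plxna4 (-0.10), Nrp2 (-0.02), Ephb6 (-0.05), Slit1 (-0.03) and Slit2 (-0.05). With library quality weights they were Sema5a (0.01) and Sema6d (0.04). With wild-type replicates 1 and 3 left out they were Plxnb3 (0.02), Ephb4 (0.05), Sema6d (0.05) and Slit2 (-0.15), and with mutant replicate 1 and wild-type replicate 2 left out Sema5a (0.01), Sema3e (0.04), Efna3 (-0.00), Efnb3 (0.01) and Unc5c (0.05). Leaving out 1 library gave ranges that crossed 0 for Sema6d (-0.06 to 0.04), Nrp2 (-0.01 to 0.13), Efna3 (-0.01 to 0.17), Slit2 (-0.04 to 0.13), Efnb3 (-0.03 to 0.02), Ephb4 (-0.27 to 0.01) and Unc5c (-0.09 to 0.01). The cause was not tested. No paired analysis was possible because the labels number the libraries of the groups differently, so that no number is shared. TMM scaling was replaced by median-of-ratios scaling. Efna4 was below the minimum mean and entered only the fit with no filter.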
